A study of Mus musculus with 282 samples.

Results

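The cells described here are inflamed basal prostate stem cells of the mouse, divided by whether reads of Il1rn, the gene of the interleukin 1 receptor antagonist, were counted in them. They were chosen by Il1rn reads alone: a kept inflamed cell with at least 1 Il1rn read was positive and a kept inflamed cell with 0 reads was negative. Of 282 profiled cells, 85 in batch 2 and 78 in batch 3 were inflamed, and 80 and 76 of these had at least 1000 detected genes and 50000 counts and were kept. Il1rn reads were present in 54 of the kept cells, 33 in batch 2 and 21 in batch 3, and absent from 47 cells of batch 2 and 55 of batch 3. All cells came from prostates of male POET3 mice, a transgenic line that makes ovalbumin in the prostate and is used as a model of prostatitis, and they had been enriched by sorting on CD45, CD31, Sca-1 and CD49f. Each carried the label naive or inflamed. The labels do not say what produced the inflamed state or when, how old the mice were, how many animals a batch held or how the sort was gated. The cells with and without Il1rn reads therefore share genotype, tissue, sex and inflamed state, and differ by the rule only in Il1rn.

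Interleukin 1 alpha and interleukin 1 beta signal through a receptor made of Il1r1 and the accessory chain Il1rap, which recruits Myd88 and the Irak kinases and leads to NF-kB. The receptor antagonist, the product of Il1rn, occupies Il1r1 without recruiting the accessory chain, and Il1r2 is a decoy receptor that binds interleukin 1 without signalling. Epithelial cells are known to hold interleukin 1 alpha as a preformed alarm signal and to make forms of the antagonist, among them one that stays inside the cell and one that is secreted and starts from a different promoter.

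Il1rn lies on chromosome 2 of GRCm38, from 24336853 to 24351494 on the plus strand. RefSeq lists 3 promoter windows for it, 2 of which overlap, so the reads counted for the gene can come from transcripts of at least 2 start regions, and a count per gene does not tell these apart. The 240 bases that lie upstream of each start region are shown because they are the regulatory sequence of the gene that divides the cells (RefSeq, GRCm38.p6, plus strand). The window of start 1 covers chr2:24336610-24336849, outside the annotated gene. The window of start 2 covers chr2:24345041-24345280, inside the gene, where all 240 bases are intronic. Capitals mark the only match found in either window to any of 4 motifs searched on both strands, the AP-1 motif TGANTCA.
Il1rn start 1: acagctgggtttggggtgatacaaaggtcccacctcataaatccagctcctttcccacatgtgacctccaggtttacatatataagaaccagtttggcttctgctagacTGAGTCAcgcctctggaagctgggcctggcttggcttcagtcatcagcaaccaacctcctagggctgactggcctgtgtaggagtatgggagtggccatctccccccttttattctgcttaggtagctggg
Il1rn start 2: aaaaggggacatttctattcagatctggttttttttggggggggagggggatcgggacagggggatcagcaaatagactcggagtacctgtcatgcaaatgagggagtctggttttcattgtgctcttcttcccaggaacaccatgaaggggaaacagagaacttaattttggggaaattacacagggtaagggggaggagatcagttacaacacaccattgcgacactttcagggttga
The AP-1 motif had a match in 6.58% of the windows of the same length from 32851 RefSeq promoters. The other motifs searched were TATAAA, found in 12.1% of the windows, the STAT motif TTCNNNGAA, found in 6.77%, and a motif of NF-kB, found in 3.91%. No motif overlapped another in either window, and the expression data cannot tell which start was used.

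The positive cells were divided at a set limit of 5 Il1rn reads into a low and a high range. Their reads did not break at that limit. In batch 2 the values around it were 2, 5, 12 and 60 reads, and in batch 3 they were 4, 8, 20 and 24, with the next at 680. In batch 2, 15 of the 33 positive cells had 1 or 2 reads and the other 18 had 5 to 1731 reads, with a median of 266. In batch 3, 11 of the 21 positive cells had 1 to 4 reads and 10 had 8 to 4717 reads, with a median of 911.5. The 18 and 10 cells of the high range held 99.8% of the 7817 Il1rn reads of batch 2 and 99.9% of the 14356 reads of batch 3, and in batch 3 a single cell held 32.9% of the reads. Just inside the threshold were 22 cells with exactly 1 read, 13 in batch 2 and 9 in batch 3. Just outside it were the 47 and 55 cells with 0 reads. A positive cell was therefore about as often a cell with 1 to 4 reads, of which there were 26, as a cell with at least 5 reads, of which there were 28.

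The share of inflamed cells with a read was 41.2% in batch 2 (exact Clopper-Pearson 95% interval 30.4 to 52.8%) and 27.6% in batch 3 (18 to 39.1%). Among naive cells, 0 of 53 in batch 2 had a read, which allows a share of up to 5.66% by the limit of 3 counts (6.72% by the exact interval). In batch 3, 5 of 59 naive cells had 1 or 2 reads, a share of 8.47% (2.81 to 18.7%), and their 6 reads together were fewer than in any inflamed cell of the high range of batch 3. No kept naive cell had 5 reads or more. A low count of 1 to 4 reads thus also occurred among naive cells, and a count of 5 or more was seen in inflamed cells only, in 18 of 80 and 10 of 76.

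**Figure D1:**
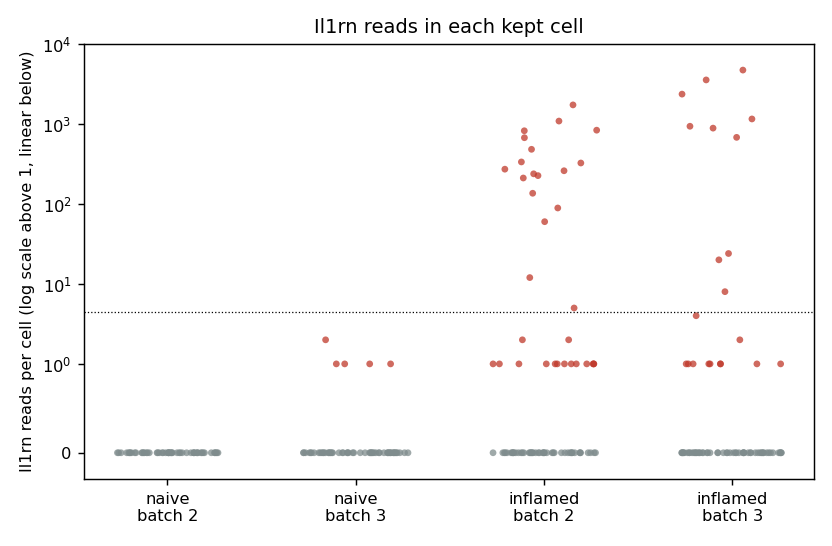
Each point is 1 kept cell and the vertical axis gives its Il1rn reads (log scale above 1, linear below), with cells at 0 in grey and cells with reads in red. The dotted line separates 1 to 4 reads from 5 or more; above it lie 18 inflamed cells of batch 2 and 10 of batch 3 and no naive cell.

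Depth differed little between the cells with and without Il1rn reads, and in opposite directions in the batches. Median counts per cell were 1110010 with and 958222 without reads in batch 2, and 922136 with and 1056050 without reads in batch 3. The median number of detected genes was 4769 against 4552 in batch 2 and 4144 against 3904 in batch 3. When each cell with at least 500000 counts was thinned to that number, the medians were 4118.5 against 4177.5 genes in batch 2 and 3693 against 3638 genes in batch 3. The order in batch 2 was thus reversed, in a set that lacked 3 positive and 7 negative cells as too shallow. Thinning left 24 of 70 cells with an Il1rn read in batch 2 (34.3%) and 13 of 72 in batch 3 (18.1%), beside 4 of 55 naive cells of batch 3 (7.27%). Mitochondrially encoded genes took a median of 3.34% of counts with and 3.74% without reads in batch 2, and 3.14% against 2.73% in batch 3. Cells in which they took over 20% lay mostly on the negative side: 8 negative cells (25.8% to 94.3%) and 1 positive cell (28.7%) of batch 2, and 2 negative and 0 positive cells of batch 3. The shallowest kept cells were negative too, at 67871 counts against 401114 for positive cells in batch 2 and 170357 against 549453 in batch 3. The cells over 20% gave 4.41% of the negative sum of batch 2 and at most 1.12% of the other sums. Without them, a choice made after seeing the data, edgeR called 0 genes, and 2.18% and 3.80% of the genes were 2-fold or more higher and lower in both batches, where all kept cells gave the 2.12% and 3.75% described below.

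The cells kept their basal identity on both sides of the division. All 10 basal markers, among them the keratins Krt5, Krt14, Krt15 and Krt17 and the basal transcription factor Trp63, had reads in each of the 4 sums of cells, and their summed level was 13421 CPM (read counts scaled to a common library total) with and 11201 without Il1rn reads in batch 2, and 11360 against 12259 in batch 3. Of 12 leukocyte markers 9 were at 0 in all 4 sums, among them Ptprc, which encodes CD45, and the rest summed to 50.01 to 165.5 CPM, mostly from Arhgdib. Of 15 myeloid markers 12 were at 0, among them Lyz2, Csf1r and the interleukin 1 beta gene Il1b, and the others summed to 0.0494 to 45.8 CPM, nearly all from Cd68. The leukocyte and myeloid sums were higher with Il1rn reads in batch 2 (165.5 against 60.4 and 45.8 against 0.664 CPM) and higher without them in batch 3. T cell markers summed to 0.666 to 16.1 CPM with 5 of 12 at 0, endothelial markers to 0.0988 to 20.96 CPM with 5 of 10 at 0, and neuroendocrine markers to 0.0458 to 24.5 CPM with 5 of 7 at 0. The stromal list summed to 3254 to 4597 CPM, but Dcn alone gave 3195 to 4492 CPM of this, with Col3a1, Lum and Pdgfrb at 0. Luminal markers summed to 2111 to 2904 CPM with none of 14 at 0, and urothelial markers to 460.4 to 934.2 CPM, nearly all from Upk1b and Gata3, with 1 of 8 at 0. Seminal vesicle genes were at 0 in both sums of batch 3 and reached 120.8 CPM in the batch 2 cells without Il1rn reads, where a single cell held 97.6% of the Svs2 reads and 92.7% of the Svs5 reads. Whether any of these levels plays a part in the differences below was not tested.

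To compare all other genes, counts were summed over the positive and the negative cells of each batch, and the 4 sums were fitted with the batch in the model. No gene was called: 0 of 13168 tested genes (0%) passed an adjusted p of 0.05 in edgeR's quasi-likelihood test, and the lowest adjusted p was 1. At an unadjusted p under 0.05, 1.35% of the genes were higher and 1.86% were lower in cells with Il1rn reads, 423 in all. Unadjusted p-values given below are edgeR's unless DESeq2 is named. DESeq2 on the same sums called 1.32% of the genes higher and 2.00% lower. With 1 residual degree of freedom the edgeR test rests on how far the difference varies between the batches, and nothing in the labels says that the batches came from different animals, without which each side would be a single sample.

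The batches agreed little on direction. The fold change within a batch had the same sign in both for 51.1% of tested genes. It was above 0 in both for 3087 genes (23.4%), below 0 in both for 3636 (27.6%) and of opposite sign for 6284. Of the 5977 tested genes with reads in at least 20% of kept inflamed cells of each batch, 28.5% were above 0 in both batches and 24.1% below. In both batches 2.12% were 2-fold or more higher and 3.75%, or 224, were 2-fold or more lower. Within batch 2 alone 642 of these genes were 2-fold or more higher and 759 lower, and within batch 3 alone 816 and 1034, so most genes past 2-fold in a batch were not past it in the other. The median log2 fold over all tested genes was 0.01 in batch 2 and -0.12 in batch 3.

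Single cells carried much of many sums. In the sum of the 21 positive cells of batch 3, 1 cell held at least 50% of the reads for 30.4% of the genes found in 20% of cells. The same share was 16.04% for the 33 positive cells of batch 2, and 9.87% and 8.32% for the 47 and 55 negative cells. A difference in a sum can therefore come from 1 cell. The highest cell is given below for some genes only, and a gene without it may also rest on 1 cell. For example, 1 cell held 77.8% to 98.8% of the reads of each Tnfaip2 sum and 59.5% to 91.6% of each Lrig1 sum.

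**Figure D2:**
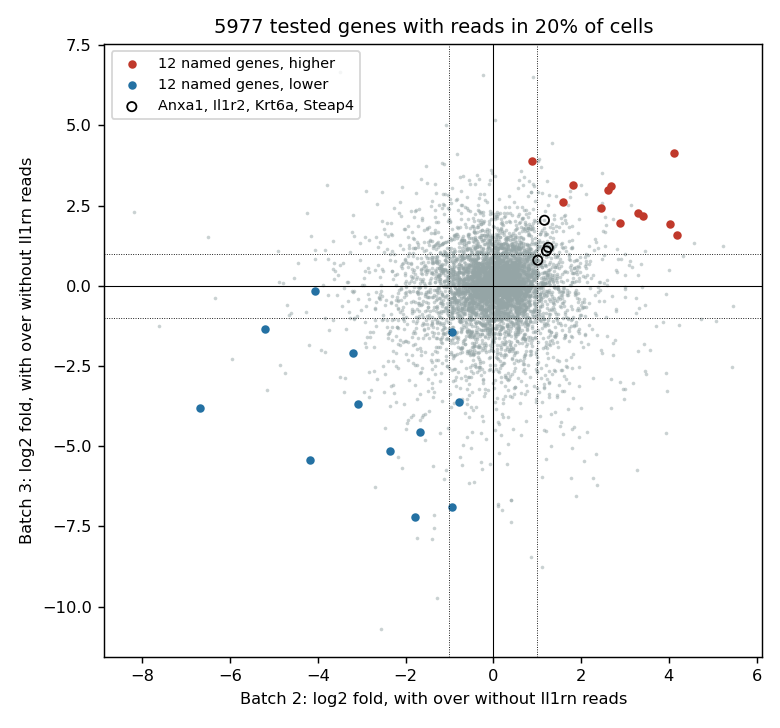
Each point is 1 of the 5977 tested genes with reads in at least 20% of kept inflamed cells of each batch, placed by its log2 fold, cells with over cells without Il1rn reads, in batch 2 (horizontal) and batch 3 (vertical). Dotted lines mark 2-fold. The named genes were picked for large folds of the same sign in both batches with the highest cell of each sum left out. Folds drawn here include those cells. Anxa1, Il1r2, Krt6a and Steap4, chosen after their values were seen, lie above 0 in both.

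Anxa1 was an abundant gene whose sum was higher with Il1rn reads in both batches, and with Il1r2, Krt6a, Steap4 and others named in this paragraph and the next it was followed up after the values were seen. Anxa1 (chromosome 19, from 20373428 to 20390944 on the minus strand) encodes annexin A1, a phospholipid-binding protein known for restraining inflammation. Its summed level was 6229 CPM with against 3086 CPM without Il1rn reads in batch 2, and 3691 against 2123 CPM in batch 3. All 80 and 76 cells had Anxa1 reads, so the difference lay in the level and not in how many cells were positive. Across single cells of batch 2 the level ran from 20.7 to 60650 CPM with a median of 2320 in positive cells, and from 3.82 to 25298 CPM with a median of 1995 in negative cells. In batch 3 it ran from 0.833 to 15142 CPM with a median of 1897 in positive cells, and from 0.747 to 8994 CPM with a median of 1356 in negative cells. The ranges overlapped almost fully in both batches. The fitted log2 fold was 0.91 ± 0.15 (SE), with an unadjusted p of 0.00576 and an adjusted p of 1 in edgeR. The highest cell held 30.9% and 37.8% of the reads of the positive sums, and without the highest cell of each sum the log2 folds were 0.70 and 0.33 in place of 1.01 and 0.80. After thinning, the median of single cells in batch 2 was 2378 CPM with and 2533 CPM without Il1rn reads, so there the typical cell did not follow the sum. Cells with at least 5 Il1rn reads had median Anxa1 levels of 2836 CPM in batch 2 and 2937 CPM in batch 3, and cells with 1 to 4 reads had 1847 and 1376 CPM, close to the negative cells. Summed over cells, the order held in batch 2, at 8550 CPM with at least 5 reads and 3258 CPM with 1 to 4, and was the other way in batch 3, at 2863 and 4237 CPM.

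Krt6a, a keratin of wound and squamous epithelium that has near-identical relatives, summed to 230.3 against 102.7 CPM in batch 2 and 104.8 against 25.4 CPM in batch 3. Reads were present in 66.7% of positive and 55.3% of negative cells in batch 2 and in 33.3% and 27.3% in batch 3. Its fitted log2 fold was 1.60 ± 0.45 (unadjusted p = 0.0303, adjusted p = 1 in edgeR). Steap4, a metal reductase that is also an androgen-responsive gene, summed to 216.3 against 90.8 CPM in batch 2 and 380.1 against 165.6 CPM in batch 3. Its reads were in 69.7% against 59.6% of cells in batch 2 and in 52.4% against 52.7% in batch 3, so in batch 3 a similar share of cells carried it on both sides. Nupr1, a stress-induced chromatin protein, had the lowest p of all tested genes, 0.00321 before and 1 after adjustment in edgeR. It summed to 1176 against 120.5 CPM in batch 2 and 880.6 against 184.4 CPM in batch 3. Single cells of batch 2 reached 20117 CPM with and 2031 CPM without Il1rn reads, and those of batch 3 5958 and 4698 CPM. The medians were 0.739 and 1.05 CPM in batch 2 and 1.18 and 0.747 CPM in batch 3, so the typical cell had about 1 read on either side. In batch 2 a single cell held 69.2% of the Nupr1 reads of the positive cells.

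**Figure D3:**
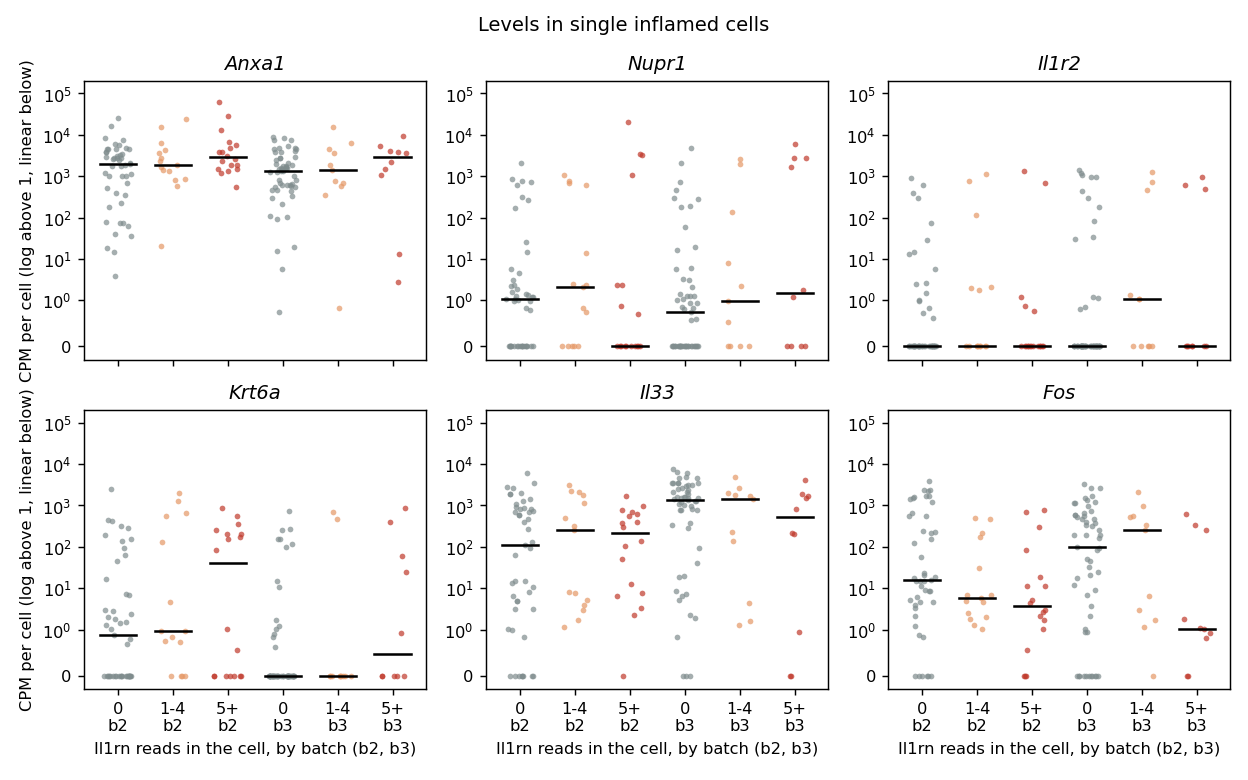
Each point is the CPM of 1 inflamed cell (log scale above 1, linear below), for cells with 0, 1 to 4 and 5 or more Il1rn reads in batch 2 (b2) and batch 3 (b3), and bars are medians. Anxa1 was found in all cells, with medians of 2836 and 2937 CPM in cells with 5 or more Il1rn reads; Nupr1, Il1r2 and Krt6a were high in a few cells of each class and at or near 0 in most.

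The interleukin 1 family did not shift as a group with Il1rn. Of 25 other members measured, 15 were tested. In both batches 2 (13.3%) were higher and 5 (33.3%) lower, beside 23.4% and 27.6% of all tested genes, and 8 were opposite. In edgeR 0 were called, and 1, Il1r2, had an unadjusted p under 0.05. The median log2 fold of the 15 was -0.45 in batch 2 and -0.09 in batch 3, beside 0.01 and -0.12 over all tested genes. The genes of the other antagonist and agonists of the family in this locus, Il1f5, Il1f6, Il1f8, Il1f9 and Il1f10, were at 0 in all 4 sums, as was Il1b. Il1rn was thus the interleukin 1 antagonist seen in these cells and Il1a the agonist.

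Il1a, the agonist of the same receptor, was not higher in level in both batches. It summed to 182.7 with against 115.4 CPM without Il1rn reads in batch 2, and to 68 against 79.3 CPM in batch 3. Reads were present in 14 of 33 positive and 17 of 47 negative cells of batch 2, and in 8 of 21 positive and 8 of 55 negative cells of batch 3. The share in batch 3 was 38.1% (exact interval 18.1 to 61.6%) against 14.5% (6.50 to 26.7%), and after thinning 6 of 21 against 7 of 51 cells. The highest cell held 34.1% to 63.8% of the Il1a reads of each sum. Il33, an alarm signal of the family that is stored in the nucleus, was the most abundant other ligand, at 615.2 against 759.3 CPM in batch 2 and 1323 against 1755 CPM in batch 3. It was lower in positive cells in both batches, by log2 folds of -0.30 and -0.41 (unadjusted p = 0.126 in edgeR), and the single-cell medians were 251.3 against 112.7 CPM in batch 2 and 840.4 against 1371 CPM in batch 3. After thinning, which kept 30 positive and 40 negative cells of batch 2, the medians there were 262 against 330 CPM, the direction of the sums. Il18, a further ligand, had reads in at most 2 cells of any sum.

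On the receptor side the decoy Il1r2 (chromosome 1, from 40074079 to 40125231 on the plus strand) was higher with Il1rn reads in both batches. It summed to 125.3 against 54.1 CPM in batch 2 and to 290.8 against 136.8 CPM in batch 3, a fitted log2 fold of 1.15 ± 0.33 (unadjusted p = 0.0312, adjusted p = 1 in edgeR). Its reads were in 11 of 33 positive and 17 of 47 negative cells of batch 2, and in 9 of 21 and 15 of 55 cells of batch 3, and after thinning in 10 of 30 and 11 of 40 cells of batch 2, so shares of cells differed by less than the levels there. The highest cell held 24.8% to 36.8% of each sum. In cells with at least 5 Il1rn reads Il1r2 was at 86.6 CPM in batch 2 and 244.0 CPM in batch 3, and in cells with 1 to 4 reads at 176.2 and 317.1 CPM. Most of the difference in batch 2 thus lay in cells with few Il1rn reads. The signalling receptor Il1r1 summed to 92.4 against 99 CPM in batch 2 and 171.1 against 114.5 CPM in batch 3. Its partner Il1rap summed to 6.66 against 65.2 CPM in batch 2 and 43.98 against 10.9 CPM in batch 3, opposite in direction. Il18r1, a chain of the interleukin 18 receptor, went from 18.2 CPM without to 6.02 CPM with reads in batch 2 and from 47.2 to 60.99 CPM in batch 3, and the interleukin 18 binding protein Il18bp was also opposite, at 7.63 against 17.6 and 55.3 against 30.8 CPM. Sigirr, an inhibitory receptor of the family, rested on 1 cell in each of the 4 sums.

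Among the adaptors and kinases of the pathway, Myd88 summed to 26.5 against 39.3 CPM in batch 2 and 49.5 against 65.9 CPM in batch 3, although its reads were in a larger share of positive cells, 39.4% against 25.5% and 33.3% against 20.0%. Irak1 was at 52.97 against 47.8 CPM and 83.1 against 29.01 CPM. Irak2 was at 12.7 against 19.5 CPM and 13.3 against 28.9 CPM, and Irak4 at 5.66 against 62.5 CPM and 39.9 against 61.4 CPM, lower in both batches. Traf6 and the inhibitory adaptor Tollip were opposite between the batches, Traf6 at 82.4 against 112.6 and 57.3 against 31.9 CPM and Tollip at 277.5 against 134.1 and 99.1 against 105.5 CPM. None of these had an unadjusted p under 0.05 in edgeR; in DESeq2 Irak4 did (p = 0.0269).

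**Figure D4:**
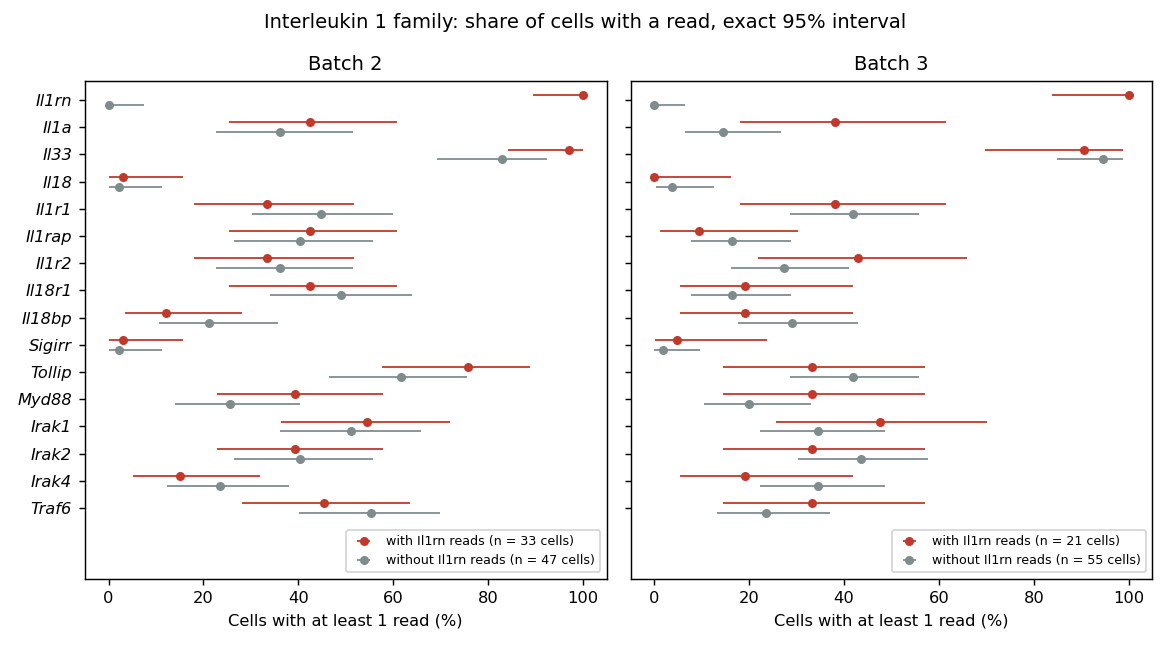
Points give the percentage of inflamed cells with at least 1 read of each interleukin 1 family gene, in red for cells with and grey for cells without Il1rn reads, and lines are exact 95% intervals that cover counting error only. Il1rn is 100% and 0% by the rule; for every other gene drawn the intervals of the red and grey points overlap in both batches.

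Genes downstream of interleukin 1 and NF-kB did not follow Il1rn as a list. Of 28 tested NF-kB targets 7 (25%) were higher and 8 (28.6%) lower in both batches, beside 23.4% and 27.6% of all tested genes. The median log2 folds were 0.06 and -0.07. Nfkbie, an inhibitor of NF-kB, was at 0.471 against 7.60 CPM in batch 2 and 2.82 against 34.1 CPM in batch 3, with the highest cell holding 46.99% to 84.2% of each sum. Tnfaip2 was at 29.4 against 3.75 and 8.94 against 0.311 CPM, and Zc3h12a, an RNase that limits inflammatory transcripts, at 9.26 against 2.75 and 6.62 against 2.47 CPM. Traf1 had reads in 1 cell at most of each sum. Of 14 tested chemokines 1 (7.14%) was higher and 2 (14.3%) lower in both batches, and 11 were opposite. Among all 13168 tested genes 23.4% were higher and 27.6% lower in both, and 6284 were opposite. The neutrophil chemokine Cxcl1 was at 614.7 against 606.2 CPM in batch 2 and 557.1 against 245.1 CPM in batch 3, where 1 positive cell held 43.4% of the reads. Cxcl12 was lower in both, at 3.08 against 15.5 CPM and 4.50 against 21.98 CPM, and Cxcl15 at 59.1 against 72.3 and 1.24 against 58.1 CPM. No NF-kB target or chemokine had an unadjusted p under 0.05 in edgeR, while in DESeq2 Nfkbie, Tnfaip2, Cxcl15 and the scavenging chemokine receptor Ackr3 did. DESeq2 called Ackr3 lower (adjusted p = 0.0252), a gene named here after its values were seen, which was at 50.3 against 49.6 CPM in batch 2 and at 0 against 49.8 CPM in batch 3. Without cells of over 20% mitochondrial counts, 0 chemokines were higher and 4 lower in both batches.

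In the interferon gamma response the medians of the batches lay on opposite sides of 0. Of 31 tested genes 8 (25.8%) were higher in both batches, 6 (19.4%) were lower and 17 were opposite. Of all 13168 tested genes 23.4% were higher in both, 27.6% were lower and 6284 were opposite. The median log2 fold of the list was -0.27 in batch 2 and 0.47 in batch 3. Without the highest cell of each sum the medians were -0.38 and -0.16, with 4 genes higher in both batches and 14 lower. Leaving out those cells also moved the medians over all tested genes, to -0.03 and -0.42. With every cell given the same weight the list medians were -0.40 and 0.32, and after thinning -0.42 and 0.51. With at least 5 Il1rn reads they were 0.05 and 0.14. Cxcl9, a T cell chemokine picked here after its values were seen, was at 0.222 against 79.2 CPM in batch 2 and at 1062 against 216.3 CPM in batch 3. Gbp2, a guanylate-binding protein picked in the same way, was at 45.7 against 257.4 CPM in batch 2 and at 784.3 against 380.6 CPM in batch 3. Gbp4 was lower in both batches, at 11.7 against 75.96 CPM and 72.3 against 151.5 CPM, and Gbp9 at 0.0277 against 5.15 and 17.2 against 32.3 CPM. Cd274, which encodes the checkpoint ligand PD-L1, summed to 12.3 against 0.320 CPM and 185.4 against 9.57 CPM, but its reads were in only 2 positive cells of each batch and 84.9% to 98.7% of each sum came from 1 cell. Irgm2 had reads in 1 positive and 0 negative cells of batch 2 and in 4 positive and 2 negative cells of batch 3. The Gbp and Irg families have near-identical members, so their counts are uncertain in part.

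Of 7 tested class II antigen presentation genes 2 (28.6%) were higher in both batches and 1 (14.3%) was lower. Over all tested genes the shares were 23.4% and 27.6%. The class II chain H2-Ab1 was at 169.01 against 190.9 CPM in batch 2 and 846.3 against 864.9 CPM in batch 3, and H2-Eb1 at 79.1 against 76.7 and 506.5 against 439.9 CPM. Differences between the batches in these genes, by more than 4-fold, were thus larger than those between cells with and without Il1rn reads. H2-DMa, which loads peptide on class II, was at 62.6 against 17.4 CPM in batch 2 and 106.7 against 103.2 CPM in batch 3.

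Wound and squamous genes leaned higher with Il1rn reads in batch 2 and not in batch 3. Of 25 tested genes 10 (40.0%) were higher in both batches and 5 (20.0%) were lower. The shares were 23.4% and 27.6% of all tested genes, and 28.5% and 24.1% of those found in 20% of cells. The median log2 folds of the list were 0.52 and -0.03. Krt6a and Anxa1, described above, belong to this list and were its members with an unadjusted p under 0.05. Sprr2h, a cornified envelope gene, was at 37.3 against 16.4 CPM in batch 2, and in batch 3 99.9% of the reads of positive cells came from 1 cell. The transglutaminase Tgm1 and the desmosomal cadherin Dsg3 were in the other direction, Tgm1 at 0 against 10.3 CPM in batch 2 and 1.04 against 3.02 CPM in batch 3, and Dsg3 at 0 in both positive sums against 1.35 and 1.42 CPM. The list of prostaglandin metabolism also holds Anxa1. Of its 12 tested genes 6 (50%) were higher in both batches and 2 (16.7%) were lower, beside 23.4% and 27.6% of all tested genes. The median log2 folds were 0.35 and 0.12. Alox12, a lipoxygenase, was at 52.3 against 35.7 CPM and 17.2 against 2.64 CPM, Ptges2 at 7.93 against 3.13 and 4.40 against 0.726 CPM, and the prostaglandin receptor gene Ptger4 at 12.95 against 28.3 and 6.97 against 10.3 CPM.

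S phase genes, which serve DNA replication, were mostly higher with Il1rn reads. Of 17 tested, 11 (64.7%) were higher and 1 (5.88%) lower in both batches, and the median log2 folds were 0.66 and 1.08. The shares were 23.4% and 27.6% of all tested genes, and 28.5% and 24.1% of those found in 20% of cells. Without the highest cell of each sum 7 were higher in both and 1 was lower, and the medians were 0.59 and 1.05. Mcm5 and Mcm6, subunits of the replicative helicase, and Hells, a chromatin remodeller, had unadjusted p under 0.05 and were higher. Mcm6 was at 63.5 against 10.3 CPM and 129.9 against 16.2 CPM, with reads in 30.3% against 25.5% and 47.6% against 16.4% of cells. Mcm5 was at 32.5 against 0.0458 CPM in batch 2 and 123.3 against 4.34 CPM in batch 3, and 1 cell held 75.2% and 61.03% of the reads of the positive sums. Hells was at 10.7 against 1.88 and 91.9 against 15.4 CPM. Rrm2, a ribonucleotide reductase subunit with an unadjusted p of 0.00759 and an adjusted p of 1 in edgeR, was in the other direction, at 68 against 263.3 CPM in batch 2 and 29.8 against 149.4 CPM in batch 3. The share of cells with Rrm2 reads was nevertheless similar, 60.6% against 63.8% and 52.4% against 47.3%. Genes of the G2 and M phases, which follow S phase, were not higher as a list. Of 28 tested, 5 (17.9%) were higher in both batches and 9 (32.1%) lower, beside 23.4% and 27.6% of all genes. Their median log2 folds were -0.50 and 0.45. With cells called positive after thinning, the S phase medians were 0.60 in batch 2 and 0.11 in batch 3, with 9 genes higher and 3 lower in both. The mean of these batch medians was 0.35 in place of 0.87. With at least 5 Il1rn reads the S phase medians were 1.13 in batch 2 and 0.27 in batch 3, with 8 genes higher and 2 lower in both.

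Of 21 tested genes of basal identity, 5 (23.8%) were higher in both batches and 7 (33.3%) were lower, beside 23.4% and 27.6% of all tested genes, and the median log2 folds were 0.28 and -0.25. Of 17 tested luminal genes 3 (17.6%) were higher in both and 6 (35.3%) were lower, with medians of -0.07 and -0.49. Itgb1, an integrin chain, was at 526.7 against 707.7 CPM and 354.8 against 506.5 CPM, Nrg1, a ligand of ErbB receptors, at 793.5 against 1222 and 482.5 against 642.1 CPM, and Egfr at 302.0 against 398.0 and 109.6 against 165.4 CPM, lower in both batches, while the cadherin Cdh3 was at 48.5 against 26.3 and 47.3 against 13.8 CPM. Among luminal genes Cldn3 was at 19.7 against 2.88 and 15.8 against 1.92 CPM, Mme at 25.8 against 40.8 and 10.4 against 26.9 CPM, and Defb50 at 34.2 against 111.8 and 50.1 against 56.5 CPM. Tgm4, a secretory transglutaminase with an unadjusted p of 0.0215, had 100% of its reads in 1 negative cell of each batch on the negative side, and its mean within-batch log2 fold turned to 0.86 when the highest cell of each sum was left out.

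Of 27 tested androgen target and cofactor genes 7 (25.9%) were higher in both batches and 6 (22.2%) were lower. Over all tested genes the shares were 23.4% and 27.6%. Steap4, given above, and Acsl3, an acyl-CoA synthetase, had unadjusted p under 0.05. Acsl3 was at 189.8 against 65.2 CPM in batch 2 and 72.01 against 29.2 CPM in batch 3, but in batch 3 its reads were in 23.8% of positive and 52.7% of negative cells. Herc3 was at 3.83 against 6.98 CPM in batch 2 and at 0 against 5.29 CPM in batch 3.

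Immediate early genes had a lower median than all tested genes in batch 2 and not in batch 3. Of 28 tested, 2 (7.14%) were higher and 11 (39.3%) lower in both batches, beside 23.4% and 27.6% of all tested genes. At an unadjusted p under 0.05 there were 0 in edgeR and 2, Fos and Egr1, in DESeq2. The median log2 folds were -0.42 in batch 2 and -0.03 in batch 3, beside 0.01 and -0.12 over all tested genes. Fos, a subunit of AP-1, was at 117.98 against 533.3 CPM in batch 2 and 329.1 against 443.3 CPM in batch 3. Its single-cell medians were 5.03 against 16.2 CPM and 2.92 against 99.3 CPM. Fosl1, another AP-1 subunit, was at 122.6 against 179.03 and 74.6 against 194.1 CPM, and Klf4, a transcription factor of epithelial differentiation, at 214.0 against 295.4 and 141.99 against 291.3 CPM. Maff was higher in both, at 93.02 against 63.5 and 92.8 against 67.1 CPM. Immediate early genes are known to respond to tissue dissociation, and its part in these levels was not tested.

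**Figure D5:**
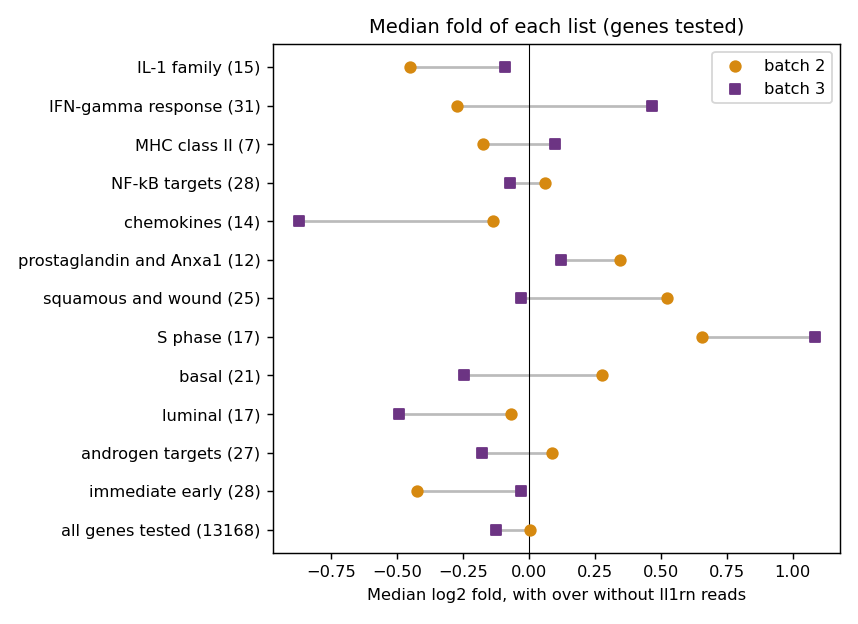
For each list of genes the median log2 fold, cells with over cells without Il1rn reads, is drawn for batch 2 (circle) and batch 3 (square), with the number of tested genes in parentheses. The S phase medians are 0.66 and 1.08; the interferon gamma, class II, NF-kB, squamous, basal and androgen medians lie on opposite sides of 0 in the batches.

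Over all 29 lists, 498 genes were tested, of which 18 had an unadjusted p under 0.05 and were higher and 2 were lower. That is 4.02% in all beside 3.21% of all tested genes, where 1.35% were higher and 1.86% lower. Among the 5977 tested genes found in 20% of cells, 68 were higher and 62 lower at that limit. The split by direction in the lists therefore differed from that over all tested genes, which was not tested. The higher ones not described so far were Lrig1, Gpx2, Nid1, Il13ra1, Hsp90ab1, Tlr3, Usp18 and Pfkfb3. Il13ra1, a receptor chain for interleukins 4 and 13, was at 409.1 against 244.2 CPM and 471.4 against 212.4 CPM, with reads in 87.9% against 76.6% and 76.2% against 61.8% of cells. Gpx2, a glutathione peroxidase of epithelia, was at 228.9 against 100.8 and 304.9 against 132.8 CPM. Hsp90ab1, a chaperone read in all cells, was at 4198 against 3219 and 4744 against 3093 CPM. Usp18, a negative regulator of interferon signalling, was at 72.9 against 28.7 and 177.9 against 76.2 CPM, in 24.2% against 31.9% and 66.7% against 21.8% of cells. Lrig1, a regulator of EGF receptor signalling and a stem cell marker, was at 14.4 against 1.05 and 154.98 against 14.4 CPM, and its fitted log2 fold was 3.59 with any Il1rn read and -1.93 with at least 5 reads. Tlr3 rested on 1 cell for 95.7% and 100% of its positive sums. These genes were chosen after their values were seen.

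Across all genes found in 20% of cells, a fixed rule took genes with the same sign in both batches and named the 12 in each direction with the largest fold in the batch where the fold was smaller, with the highest cell of each sum left out. The rule selects for size and a shared sign, so the folds of these genes describe them and support nothing. Those higher with Il1rn reads were Trmt6, Tmem161b, Gna12, Tapbpl, Mcm6, Hdac3, H2-T10, Fbxw2, Macc1, Nupr1, Slfn2 and Gyg, and 8 of the 12 had an unadjusted p under 0.05. They include Tapbpl, an editor of peptides on class I molecules, at 53.8 against 2.91 CPM and 151.97 against 50.4 CPM, Hdac3, a histone deacetylase, at 117.3 against 11.1 and 101.6 against 22.5 CPM, and Slfn2, an interferon-inducible gene, at 66.98 against 18.97 and 107.1 against 12.2 CPM. Gyg, the primer of glycogen synthesis, was at 126.02 against 16.98 and 93.2 against 24.2 CPM. With all cells in the sums, 11 of the 12 were 2-fold or more higher in both batches. In 9 of the 12 the share of cells with a read was larger among positive cells in both batches. The tRNA methyltransferase subunit gene Trmt6 was at 85.7 against 13.3 and 87.9 against 10.2 CPM. Its fitted log2 fold of 2.90 turned to -1.93 when positive cells were limited to those with at least 5 Il1rn reads. The other 11 stayed above 0, but those cells are part of the sums that picked the genes.

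Those lower with Il1rn reads were Mbnl3, Auh, Gfm2, Pex19, Slc30a6, Aco1, Sms, Gab1, Ifit2, R3hcc1l, Cpsf1 and Sytl1, and 5 of the 12 had an unadjusted p under 0.05. Cpsf1, a subunit of the polyadenylation machinery, was at 3.99 against 73.7 CPM in batch 2 and 1.48 against 66.1 CPM in batch 3, although a read was found in 24.2% against 21.3% and 52.4% against 50.9% of cells. Slc30a6, a zinc transporter, was at 0.527 against 59.1 and 7.76 against 108.7 CPM. Pex19, a peroxisome assembly factor, was at 2.91 against 108.6 and 46.3 against 116.6 CPM, with reads in 30.3% against 46.8% and 33.3% against 43.6% of cells. Gab1, a docking protein of growth factor receptors, was at 40.7 against 77.97 and 0.247 against 35.7 CPM. Ifit2, an interferon-induced gene, was at 6.21 against 19.9 and 5.93 against 141.8 CPM, and 67.2% and 76.3% of its negative sums came from 1 cell. With all cells in the sums, 8 of these 12 were 2-fold or more lower in both batches. The share of cells with a read was smaller among positive cells in both batches for 6 of the 12. All 12 stayed below 0 with positive cells limited to at least 5 Il1rn reads. Those cells are part of the sums that picked the genes, so this is no separate check. Of the 96 sums of the 24 genes, 46 had 50% or more of their reads in a single cell.

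Per cell, the rank order of other genes was only weakly like that of Il1rn (80 and 76 cells, 5977 genes ranked). By the smaller of the batch values the 5 genes most like it, with their Spearman correlations in batches 2 and 3, were Gm27219 (0.36 and 0.33), Gm5436 (0.29 and 0.31), Atp5o (0.34 and 0.29), Ppp2r2d (0.31 and 0.29) and Snrpb (0.28 and 0.30). The cells of a batch share depth and processing, and a correlation this weak in sparse counts is given as a description only.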

How the data were processed

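The deposited tables hold raw counts, 1 value per gene and cell, from single cells captured on a Fluidigm C1 with SMARTer chemistry and single-end reads, per the labels' protocols. TopHat2, HTSeq, R 3.4.1, Seurat 1.4 and GRCm38.p6 are named in the submitters' processing notes, without roles. The chemistry adds no molecular identifiers and the reads' strand is not given, so a count is a read, intervals and floors cover counting error only, and overlapping genes were not separated. Symbols of 48058 of 48440 gene identifiers came from GENCODE, and 5 list genes were matched by RefSeq's older or newer symbols.

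Cells with under 1000 detected genes or 50000 counts were left out (14 of 282, 7 of them inflamed, 1 of which had 2 Il1rn reads). No doublet caller was run, and 0 cells had identical counts. The labels name no animal. Kept cells held 67871 to 2125978 counts. Counts were summed per batch and Il1rn status (35966829, 43258501, 20852554 and 57606568 counts for batch 2 with and without and batch 3 with and without reads) and tested with edgeR 4.0.16 in R 4.3.3 (quasi-likelihood F test, TMM, filterByExpr, batch and status in the model, Benjamini-Hochberg over all tested genes but Il1rn). The batch, named by the labels, pairs the sums. Residual degrees of freedom were 1, and the prior 2.42. CPM of sums use TMM-corrected library sizes, CPM of single cells and of read classes their plain totals, and within-batch log2 folds a prior count of 2. Thinning to 500000 counts left out 10 shallower inflamed cells of batch 2 and 4 of batch 3.

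Genes were named by rule: of tested genes with reads in 20% of kept inflamed cells of each batch, with the same sign in both batches also without the top cell of each sum, the 12 with the largest smaller fold in each direction (1 unnamed locus skipped); up to 4 tested members of each described list with the largest smaller fold of the same sign in both batches; all interleukin 1 family members; and the 5 genes most like Il1rn. The cells, lists and genes were chosen with earlier results of these data known. Alternatives were DESeq2 1.42.0, other scalings, filters and prior counts, no batch term, thinning, 5 Il1rn reads, equal cell weights, the top cell left out, 2000 genes per cell, at most 20% mitochondrial counts and single batches.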

Additional observations from a re-analysis of the deposited data

Results flagged for a closer look

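Il1rn reads were counted in 5 of 59 kept naive cells of batch 3, which enter no comparison of cells with and without reads. The share of 8.47% is above the 5.08% that a count of 0 would allow by the limit of 3 counts and the 6.06% by the exact interval, but its own exact interval, 2.81 to 18.7%, holds both limits. These cells had 1 or 2 reads each, 6 in all, and 4 of 55 kept a read after thinning. In naive cells of batch 2 the count was 0 of 53. Inflamed cells with as few as 1 to 4 reads numbered 15 in batch 2 and 11 in batch 3, and the part of such reads in the comparison is given by the values for cells with at least 5 reads.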

How the results depend on the processing

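edgeR called 0 genes in either direction under upper-quartile scaling, library size alone, no filter, the 20% filter, no replicate block, both ways of thinning, at least 5 Il1rn reads, cells with 2000 genes and cells with at most 20% mitochondrial counts. DESeq2 called 1.32% of genes higher and 2.00% lower, and DESeq2 on cells with at least 5 Il1rn reads, chosen after seeing the data, 0.967% and 2.58%. Without cells of over 20% mitochondrial counts, also chosen after seeing the data, DESeq2 called 1.33% and 2.03%; the cause was not tested. The 2.12% of genes 2-fold higher and 3.75% lower in both batches became 1.37% and 6.99% without the top cell, and 6.27% were lower with at least 5 Il1rn reads. In a single batch, where no test was made, 10.7% to 13.7% were 2-fold higher and 12.7% to 17.3% lower. As means over both batches, some list medians moved by more than the standard deviation of the batch values, several of them by less than the gap between the batches. These were class II genes with at least 5 Il1rn reads (0.46) and NF-kB targets with equal cell weights (0.10) and without the top cell (-0.17). Prostaglandin genes also moved so without the top cell (0.0225), with status from thinned counts (0.077) and with 5 reads (0.035). The same held for S phase genes with status from thinned counts (0.35), and for androgen targets without the top cell (-0.37) and with status from thinned counts (-0.28). Of 76 genes followed, 62 kept their direction in every alternative. All 76 had the same sign in both batches, most by the rule that picked them, so a single batch could reverse none. Those named by the fixed rule also had to keep their sign without the top cell. The count of 62 is therefore set in part by the selection. With at least 5 Il1rn reads Trmt6 (-1.93), H2-Ab1 (0.35), Ptges2 (-0.93), Cdh3 (-0.017) and Lrig1 (-1.93) reversed. With status from thinned counts Tmem161b (-0.21), H2-Ab1 (0.18), Cxcl1 (-0.42), Ptges2 (-1.15), Sprr2h (-2.54), Cdh3 (-1.14) and Maff (-0.22) did. Without the top cell Sigirr (0.022), Ptges2 (-0.19), Tgm4 (0.86) and Tlr3 (-0.13) did, H2-DMa (-0.063) did after thinning and H2-Eb1 (-0.67) with equal cell weights. Other scalings moved the median log2 fold of all tested genes by under 0.1; in batch 3, where it was -0.12, it became -0.42 without the top cell, -0.51 with 5 reads and -0.35 with status from thinned counts, and in batch 2, where it was 0.01, -0.11 with 5 reads and 0.11 with equal cell weights. With 21 to 55 cells in a sum, 1 cell can hold most of a gene's reads, which limits these values at any depth.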
